A study of Mus musculus with 11 samples.

Results

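The MYC, MAX and MXD family was followed in wild-type (WT) and Atxn7l3-/- cells of the mouse. It comprises 10 genes, Myc, Mycn, Mycl, Max, Mxd1, Mxd3, Mxd4, Mxi1, Mnt and Mlx, of 31518 genes listed for mouse embryonic stem cells (mESCs) and 29450 listed for mouse embryonic fibroblasts (MEFs). The family was chosen from the strong fall of Myc in Atxn7l3-/- mESCs, so the members' values in that contrast are a description and carry no test. All 10 genes were listed once in each cell type and passed the filter on low counts in both.

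Poly(A)+ RNA was sequenced from 2 WT (Atxn7l3+/+) and 3 Atxn7l3-/- mESC libraries and from 3 WT and 3 Atxn7l3-/- MEF libraries, all of the strain DBA/2 x C57BL/6. ATXN7L3 is a subunit shared by deubiquitylation modules that act on ubiquitylated histone H2B. The mESCs were stem cell lines derived from blastocysts, grown with leukaemia inhibitory factor, 15% fetal calf serum, 1 uM of the MEK inhibitor PD0325901 and 3 uM of the GSK3 inhibitor CH99021, the last steps without feeder cells. The MEFs were primary cells grown in 10% serum, taken from E10.5 embryos less head and gastrointestinal tract. Both genotypes of a cell type shared its medium. Library totals ranged from 34515342 counts in WT MEF replicate 2 to 49602605 in WT MEF replicate 1. Levels are given as CPM (counts divided by the library's normalized total and scaled), normalized over the 11 libraries. The limit that a count of 0 allows, 3 counts, lay between 0.0571 and 0.0935 CPM and covers counting error only.

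MYC, MYCN and MYCL are basic helix-loop-helix leucine zipper transcription factors that bind DNA as dimers with MAX, at E-box sequences, and activate genes of growth and metabolism. MXD1, MXD3, MXD4, MXI1 and MNT compete for MAX and recruit SIN3 corepressors to similar sites. MLX is a MAX-like partner that dimerizes with MLXIP, MLXIPL and some of the repressors. In mESCs cultured with these inhibitors, the MYC proteins are known for supporting proliferation and biosynthesis.

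The targeted gene was examined first. In WT mESCs Atxn7l3 was at 196 and 202 CPM, and in the Atxn7l3-/- mESCs at 3.33, 1.60 and 0.831 CPM. The stem cell libraries therefore followed their labels. In MEFs it was at 86.4, 117 and 103.7 CPM in the WT libraries and at 56.4, 55.3 and 73.2 CPM in those labelled Atxn7l3-/-. The 2 MEF groups did not overlap, but the labelled knockouts were at 61.7 ± 9.99 CPM where WT was at 102.3 ± 15.2 CPM (SD, n = 3 each; log2 fold change -0.74 ± 0.21 SE, adjusted p = 0.0715, not called). The counts are per gene and not per exon, so reads from retained exons could not be set apart. For MEFs the text therefore speaks of libraries labelled Atxn7l3-/-. RNA counts do not measure the protein, so these values do not show whether it was lost.

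Defining markers followed the cell types. The mESC list, which includes Pou5f1 and Nanog, summed to between 4394 and 5385 CPM in the 5 mESC libraries and to between 6.77 and 82.5 CPM in the MEFs. In the 3 MEF libraries labelled Atxn7l3-/- most of that sum was Tfcp2l1, at 1.29 ± 0.247 CPM (SD, n = 3) in WT MEFs and 54.2 ± 24.5 in those. The fibroblast list, which includes Col1a1 and Col1a2, summed to between 21285 and 56528 CPM in the MEFs. In the mESCs it was at 1410 and 2465 CPM in WT and at 3053, 3304 and 5170 CPM in the knockouts, most of it Fn1. All knockout mESCs were thus above WT for this list. Of its 10 genes 9 had a positive log2 fold change, with a median of 1.19, 6 had an unadjusted p under 0.05, and 1, Col1a1, was called (log2 fold change 2.54 ± 0.59, adjusted p = 0.0469). Of all 17800 genes tested in mESCs 6.96% were called. The share at an unadjusted p under 0.05, which was larger, is not given, and nothing is read from these counts. Of the other lists in mESCs, the 8 stem cell markers had 1 call, Tdgf1, which was lower, and 4 genes at an unadjusted p under 0.05. Their log2 fold changes were positive for 3 and negative for 5, with a median of -0.41. The 8 epithelial and mesothelial genes had 1 call, Epcam, which was higher, and 4 at an unadjusted p under 0.05, while 5 were negative and the median was -0.29. Their keratin genes Krt8, Krt18 and Krt19 were below WT in every knockout library and were not called. The 5 neural crest and neural genes had 1 call, Tubb3, which was lower, and 1 at an unadjusted p under 0.05, while 3 were positive and the median was 0.30. No macrophage or endothelial gene was called by edgeR in mESCs, with 1 and 0 at an unadjusted p under 0.05. These markers are named after their values were seen, and their part in the mESC results below was not tested.

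Promoter sequences were taken from RefSeq (GRCm38.p6), which gave entries for 9 of the 10 members and none for Myc. Mycn, the member called in MEFs below, is shown beside the 3 members whose promoters hold an E-box, the sequence that MYC-MAX and MXD-MAX dimers bind. The 250 bases before the start were searched on both strands for CACGTG (E-box), TTTNGCGC (a form of the E2F site) and TTCNNNGAA (STAT), and matches are in capitals. Only the bases before the outermost annotated start of each gene are printed. The E-box was found once each in Mxd4, Mnt and Mlx. The E2F form was found 3 times in Mycn, with 2 of the matches overlapping on opposite strands, and no other member's window held any of these motifs. Of 32851 promoters, 6.0% held the E-box, 1.1% the E2F form and 7.0% the STAT form. A match describes letters only.
Mycn (chr12:12941915-12942086, minus strand): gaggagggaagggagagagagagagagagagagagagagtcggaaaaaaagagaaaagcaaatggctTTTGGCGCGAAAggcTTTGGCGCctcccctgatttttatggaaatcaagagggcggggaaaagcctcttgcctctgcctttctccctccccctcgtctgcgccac
Mxd4 (chr5:34187721-34187960, minus strand): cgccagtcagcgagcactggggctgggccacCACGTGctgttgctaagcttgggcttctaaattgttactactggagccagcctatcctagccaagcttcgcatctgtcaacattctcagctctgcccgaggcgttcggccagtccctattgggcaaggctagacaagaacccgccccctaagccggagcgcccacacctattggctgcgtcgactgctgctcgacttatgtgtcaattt
Mnt (chr11:74830674-74830919, plus strand): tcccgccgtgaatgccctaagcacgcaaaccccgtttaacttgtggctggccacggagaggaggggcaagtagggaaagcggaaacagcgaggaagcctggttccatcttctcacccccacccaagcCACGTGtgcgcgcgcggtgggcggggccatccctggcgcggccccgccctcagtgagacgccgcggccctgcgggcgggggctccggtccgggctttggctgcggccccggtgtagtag
Mlx (chr11:101087040-101087276, plus strand): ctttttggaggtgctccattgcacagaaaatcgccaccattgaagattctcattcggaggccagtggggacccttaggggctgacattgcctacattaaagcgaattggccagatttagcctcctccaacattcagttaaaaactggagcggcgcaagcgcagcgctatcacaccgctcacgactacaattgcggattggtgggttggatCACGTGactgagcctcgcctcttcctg

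The first comparison asked how the network of WT cells is composed in the 2 cell types, which differ also in derivation and medium. Mycl and Mycn were the abundant MYC genes of mESCs and Myc that of MEFs, while Mxd4 was much higher in MEFs. Levels between genes were compared per kb of the median transcript length. In WT mESCs, Mycl took 78.3 ± 1.87% (SD, n = 2) of the summed MYC paralogs, Mycn 17.4 ± 2.65% and Myc 4.26 ± 0.783%. In WT MEFs, Myc took 63.7 ± 15.0% (SD, n = 3), Mycl between 17.2 and 40.6% in single libraries, and Mycn 4.16 ± 3.58%. The sum of the 3 paralogs was 100.2 ± 15.9 CPM per kb in WT mESCs and 35.5 ± 20.9 in WT MEFs. Median transcript lengths were as listed by the authors, and a wrong length would shift such shares. They were 728 bases for Mycl, 2522 for Mycn and 1793 for Myc. In CPM, not divided by length, Mycl was at 57.0 ± 7.69 in WT mESCs, Mycn at 44.5 ± 13.7 and Myc at 7.54 ± 0.194.

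Among the repressors, Mnt took 79.1 ± 3.85% (SD, n = 2) of the summed MXD and MNT level in WT mESCs and 28.2 ± 4.40% (SD, n = 3) in WT MEFs. Mxd4 took 5.44 ± 3.20% and 59.3 ± 2.68%. These shares also rest on the listed lengths, 777 bases for Mnt, 2516 for Mxd4 and 4996 for Mxi1. In CPM, Mnt was at 65.2 ± 1.76 in WT mESCs, Mxi1 at 47.0 ± 8.93 and Mxd4 at 14.9 ± 9.65. Max, the common partner, stood at 103.8 ± 4.62 CPM per kb in WT mESCs and 118.3 ± 10.9 in WT MEFs. In WT mESCs the order of mean levels per kb was Max, Mlx, Mnt, Mycl, Mycn, Mxi1, Mxd4, Myc, Mxd3 and Mxd1, in which Max and Mlx lay within their spread of each other, as did Mnt and Mycl, and neighbours from Mxi1 to Mxd1. In WT MEFs the order was Max, Mxd4, Mlx, Mnt, Myc, Mycl, Mxd3, Mxd1, Mxi1 and Mycn; there Max and Mxd4, Mlx and Mnt, and neighbours from Myc to Mxd1 lay within their spread. Max, Mlx, Mnt and Mycl have the shortest listed lengths of the members, between 679 and 777 bases, which raises their place in these orders. In CPM, Mxd4 was the highest member of WT MEFs, at 265 ± 47.0, with Max at 89.0 ± 8.19.

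**Figure D1:**
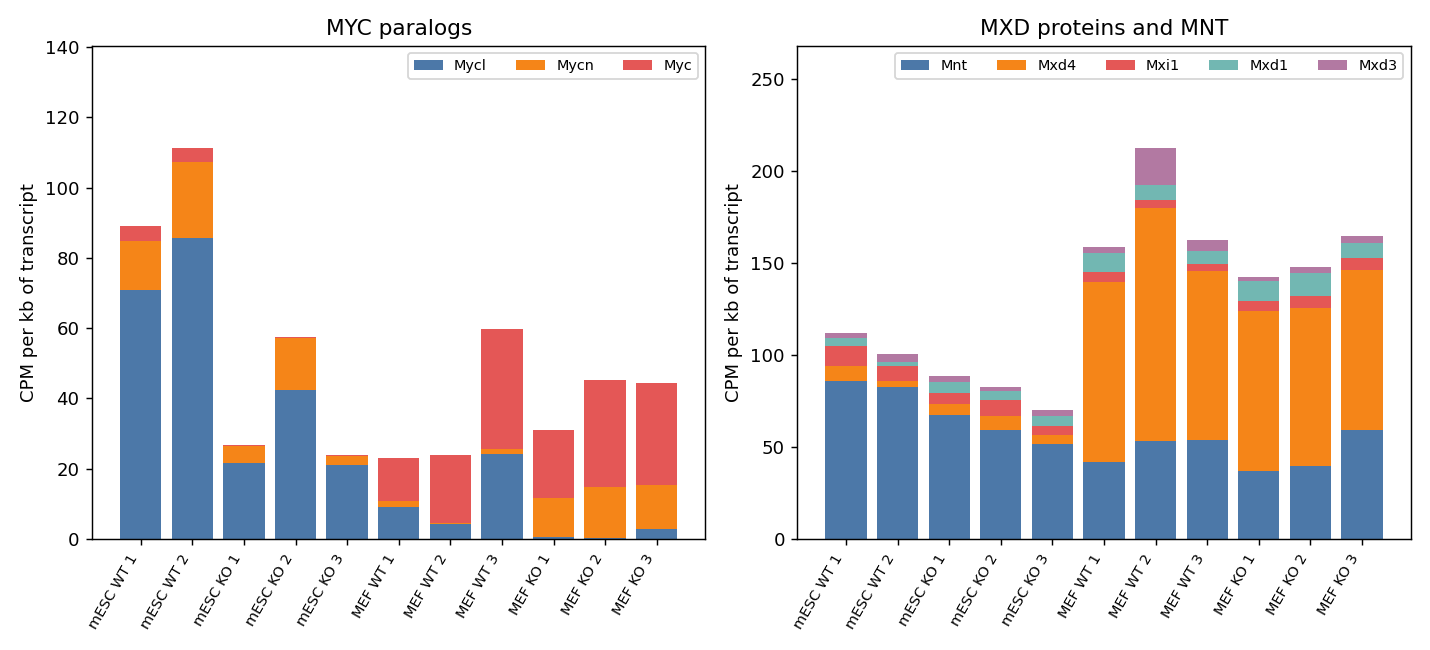
Stacked bars of CPM per kb of transcript in each of the 11 libraries, for the MYC paralogs on the left and the MXD proteins with MNT on the right. Mycl fills most of the mESC bars, Myc most of the MEF bars, and Mxd4 the largest part of the MEF repressor bars.

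Of the 9 members tested between WT MEFs and WT mESCs, 7 were called at an adjusted p of 0.05 or less, where 54.0% of all 19312 genes were called (26.8% up and 27.1% down). Of these, 2 were higher in MEFs and 5 lower. Mxd4 was higher by a log2 fold change of 4.16 ± 0.43 (SE, adjusted p = 4.2e-05), from 14.9 ± 9.65 CPM (SD, n = 2) to 265 ± 47.0 (SD, n = 3). Mycn was lower (log2 fold change -3.83 ± 0.70, adjusted p = 0.00117), as was Mycl (-2.66 ± 0.85, adjusted p = 0.0220). Mxd1 was higher (1.35 ± 0.37), and Mxi1, Mlx and Mnt were lower by log2 fold changes between -1.11 and -0.76. Max and Mxd3 were not called, and Mxd3 was called without MEF WT replicate 1 (1.86, adjusted p = 0.0279). Myc, given with no test, was at 7.67 and 7.40 CPM in WT mESCs and at 21.8, 34.6 and 61.2 CPM in WT MEFs. Without either WT mESC library 4 members were called, where 36.1% and 32.1% of all genes were. The Mycl call ended without mESC replicate 1 or 2 or MEF replicate 1 or 2 (adjusted p between 0.0529 and 0.0900), and the Mnt call without either mESC library or MEF replicate 1 (between 0.0650 and 0.112). Mxd1 was not called without mESC replicate 2 (0.116) and Mxi1 not without mESC replicate 1 (0.0602).

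The second comparison set Atxn7l3-/- mESCs against WT mESCs. All 3 MYC paralogs were lower on average in the knockouts, and Myc was close to that limit of 3 counts in 2 of them. The Myc gene (ENSMUSG00000022346) lies on chromosome 15 from 61985391 to 61990374 of mm10, on the plus strand. It was at 7.67 and 7.40 CPM in the WT libraries and at 0.154, 0.556 and 0.180 CPM in the knockouts, which are 6, 26 and 8 counts. The groups did not overlap, and replicate 2 of the knockouts was the highest of its group. The fitted log2 fold change was -4.61 ± 0.62 (SE), and -5.40 without that library.

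Mycn (ENSMUSG00000037169, chromosome 12, 12936093 to 12941914, minus strand) was at 34.9 and 54.2 CPM in WT mESCs and at 12.3, 37.9 and 6.69 CPM in the knockouts. The groups overlapped through replicate 2 of the knockouts. Mycl (ENSMUSG00000028654, chromosome 4, 122995652 to 123002485, plus strand) was at 51.6 and 62.5 CPM in WT and at 15.7, 30.8 and 15.3 CPM in the knockouts, without overlap. Replicate 2 was again the highest knockout. The fitted log2 fold changes were -1.20 ± 0.61 for Mycn and -1.43 ± 0.32 for Mycl. That of Mycn was -2.15 without KO replicate 2 and -0.79 without KO replicate 3. The summed paralogs came to 89.0 and 111.4 CPM per kb in WT and to 26.6, 57.6 and 23.8 in the knockouts, so that every knockout library lay below both WT libraries. Per kb, Mycl had the largest share of that sum, 81.0 ± 7.52% (SD, n = 3), while the share of Myc was 0.428 ± 0.108%. These shares rest on the listed lengths, and in CPM Mycn was above Mycl in replicate 2 of the knockouts.

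With all libraries, the partners and repressors had smaller fitted changes than the MYC paralogs, a difference that was not tested. Max was at 80.5 and 75.6 CPM in WT and between 63.0 and 92.0 CPM in the knockouts. Mnt was at 66.5 and 64.0 CPM and at 52.4, 45.9 and 40.0 CPM, and Mxd1, a repressor known from differentiating cells, at 7.56 and 4.40 CPM and at 10.2, 8.79 and 9.59 CPM. For Mnt all knockouts lay below WT and for Mxd1 all above. Mlx was slightly lower in every knockout (52.3 to 67.0 CPM) than in WT (68.7 and 70.2 CPM), and Mxd3, Mxd4 and Mxi1 overlapped. Fitted log2 fold changes of these 7 members ranged from -0.46 for Mxi1 to 0.72 for Mxd1. Single libraries moved several of them. Mxd1 was at 1.17 without WT replicate 1 and 0.37 without WT replicate 2, and Mxd4, at 0.057 with all libraries, at 0.96 and -0.50. Mxd3 went from -0.16 to 0.18 without WT replicate 2, and Mxi1 to -0.24 without WT replicate 1. With GC offsets Mnt went from -0.45 to -0.69. By the same fit 2 members, Myc and Mycl, had an adjusted p of 0.05 or less, where 6.96% of 17800 genes were called (3.08% up, 3.88% down). The groups did not overlap for 5 members, as for 49.7% of all genes tested. Nothing is read from either count, because the contrast chose the family.

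**Figure D2:**
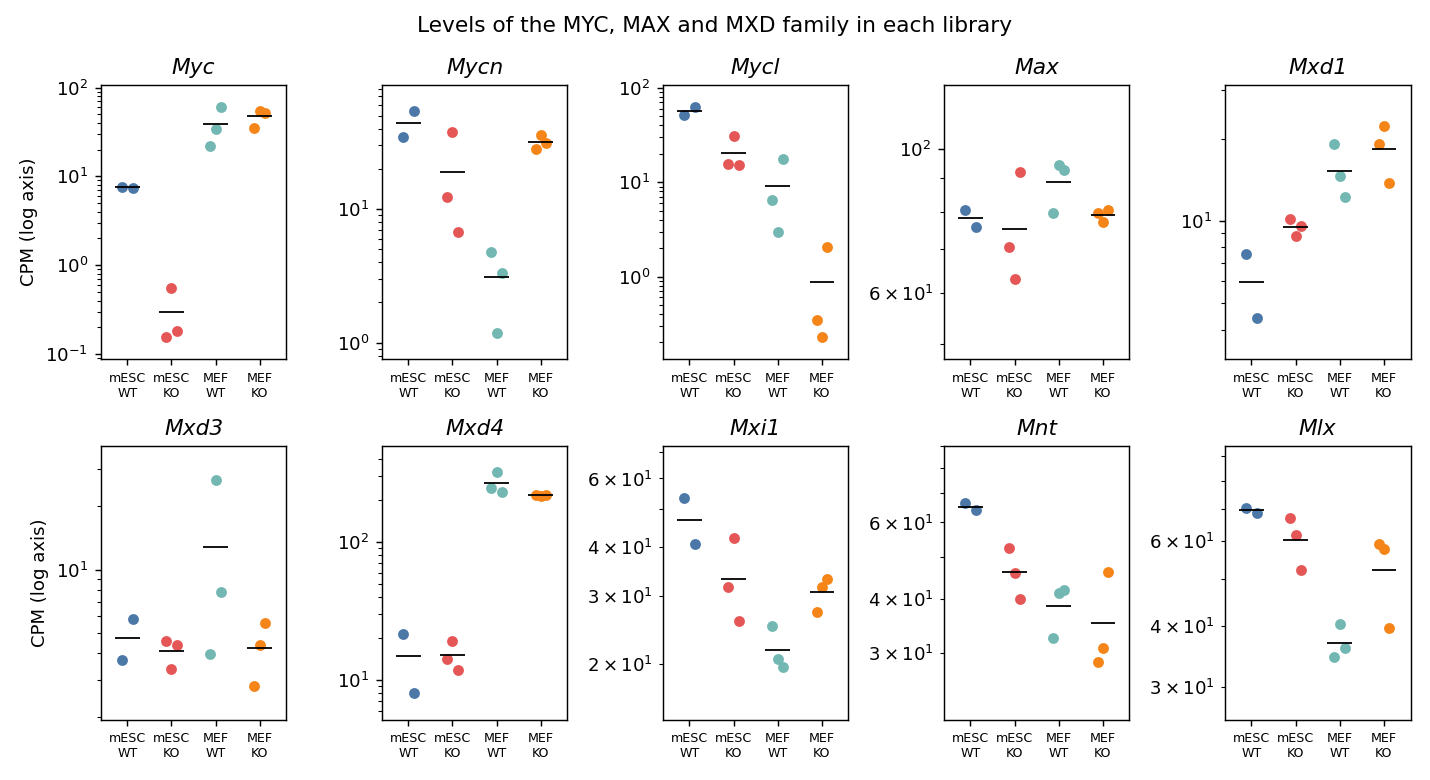
CPM of each member on a log axis, 1 point per library and a line at the group mean (mESC WT n = 2, other groups n = 3). Myc lies lowest in Atxn7l3-/- mESCs, and in MEFs Mycn is higher and Mycl lower in the libraries labelled KO.

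The mESC genotypes differed also in sex-linked genes. Of 5 sex-linked genes 1 was called, the Y-linked Kdm5d, which was lower (log2 fold change -4.92 ± 1.05, adjusted p = 0.0387). Without KO replicate 3 all 5 were called, 1 higher and 4 lower, and without either WT library or KO replicate 1 none was. The Y-linked Ddx3y was at 80.3 and 174.8 CPM in WT and at 2.95, 0.791 and 191.6 CPM in the knockouts. Knockout replicates 1 and 2 thus had little Y-linked RNA, while replicate 3 had as much as WT for Ddx3y but 0.584 CPM of Kdm5d, against 5.90 and 22.8 CPM in WT. Xist, the RNA of the inactive X, was at 9.71 and 23.0 CPM in WT and at 49.8, 45.8 and 2.38 CPM in the knockouts. The part of sex in the mESC values, those of Myc included, was not tested.

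Near Myc, 4 genes were listed within 500 kb in mESCs. Pvt1, a long noncoding RNA 47612 bases from Myc, was at 9.84 and 12.1 CPM in WT mESCs and at 18.0, 21.7 and 33.4 CPM in the knockouts. All knockouts were above WT, opposite to Myc, but the change was not called (log2 fold change 1.21 ± 0.34, adjusted p = 0.0710). In MEFs Pvt1 was at 25.7 ± 1.75 CPM (SD, n = 3) in WT and 25.7 ± 2.93 in the libraries labelled Atxn7l3-/-. Gm27782, Gm27957 and H2afy3 did not exceed 3 counts in any library.

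The third comparison set MEFs labelled Atxn7l3-/- against WT MEFs, in which the members could be tested. Mycn was higher, Mycl was low in the labelled knockouts, and Myc was not called. Mycn was at 4.80, 1.18 and 3.34 CPM in WT MEFs and at 28.3, 36.1 and 31.2 CPM in the labelled knockouts. The groups were far apart, and the lowest labelled knockout lay above every WT library. The log2 fold change was 3.33 ± 0.53 (SE, adjusted p = 0.0209), higher in 3 of 3 libraries. That call was lost without WT replicate 3, KO replicate 1 or KO replicate 2, at adjusted p of 0.0702, 0.0572 and 0.0653 and log2 fold changes of 3.40, 3.44 and 3.24. Over all settings tried its adjusted p lay between 2.6e-08, with DESeq2, and 0.0702.

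Mycl was at 6.49, 2.99 and 17.6 CPM in WT MEFs and at 0.344, 0.230 and 2.06 CPM in the labelled knockouts. All labelled knockouts lay below WT, and WT varied several-fold. The log2 fold change was -3.35 ± 1.08 and was not called (adjusted p = 0.0913). With the replicate number as a block it was -3.66 ± 0.45 (adjusted p = 0.0185), and it was also called with DESeq2 (0.00350), in 1 fit of the 11 libraries, with the block and offsets for GC content, and without KO replicate 3 (log2 fold change -4.97, adjusted p = 0.0384). Over all settings its adjusted p lay between 0.00350 and 0.230. Myc was at 21.8, 34.6 and 61.2 CPM in WT and at 34.8, 54.9 and 52.4 CPM in the labelled knockouts, and the groups overlapped (log2 fold change 0.27 ± 0.40, adjusted p = 0.666). Its sign turned without WT replicate 1 (-0.012).

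In total 1 of the 10 members was called in MEFs, Mycn, where 9.41% of 15958 genes were called (5.01% up, 4.39% down). With the replicate block 2 members were called, where 14% of all genes were. The groups did not overlap for 4 members, Mycn, Mycl, Mxd4 and Mxi1, as for 39.8% of all genes tested. Mycn took 31.9 ± 4.16% (SD, n = 3) of the summed paralogs in the labelled knockouts and 4.16 ± 3.58% in WT. The sum itself was 40.3 ± 7.94 CPM per kb in the labelled knockouts and 35.5 ± 20.9 in WT, with overlapping libraries.

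None of the other 7 members, repressors and partners, was called in MEFs by edgeR or DESeq2, and 0 of them had an unadjusted p under 0.05. A missed threshold does not show that they were unchanged. Mxd3, at 3.95, 26.8 and 7.79 CPM in WT and between 2.81 and 5.56 CPM in the labelled knockouts, overlapped and had 1 high WT library (log2 fold change -1.59 ± 0.73, and -0.46 without that library). Mxd4 was between 231 and 319 CPM in WT and between 215.6 and 218.7 CPM in the labelled knockouts. Mxi1 was at 21.8 ± 2.90 CPM (SD, n = 3) in WT and 30.6 ± 3.06 in the labelled knockouts, and Mlx at 37.0 ± 3.05 and 52.2 ± 10.9. Max and Mxd1 had log2 fold changes of -0.18 ± 0.16 and 0.24 ± 0.31. Mnt had -0.14 ± 0.26, and with offsets for GC content it turned to 0.74 ± 0.16 (adjusted p = 0.0460, and between 0.0460 and 0.977 over all settings). Across 15944 genes, which are not independent replicates, log2 fold changes in MEFs were lower at higher GC content (Spearman rho = -0.394). The part of GC content in the member values was not tested beyond these offsets.

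**Figure D3:**
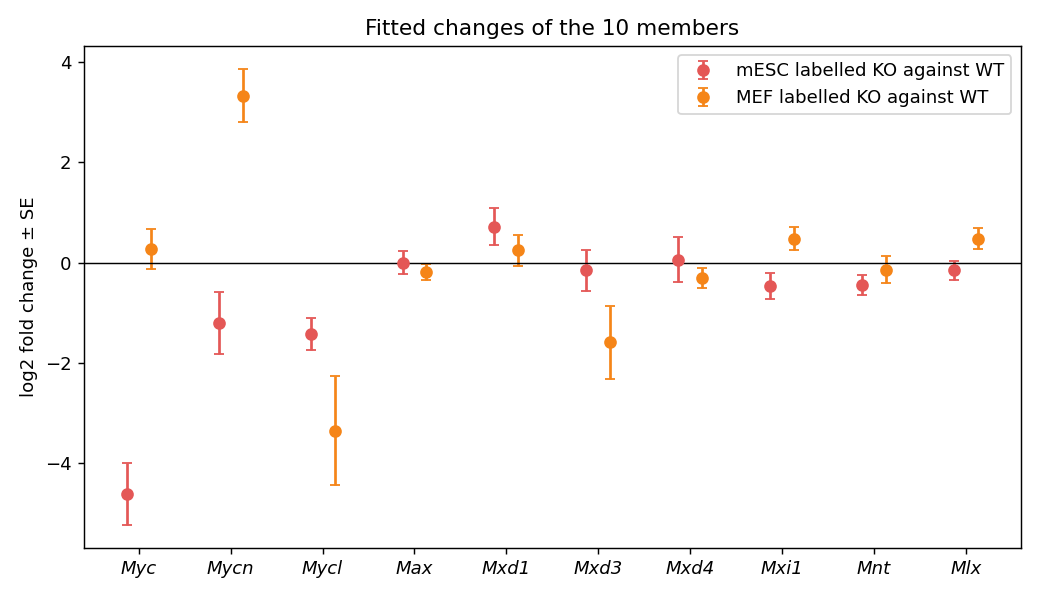
Fitted log2 fold changes with standard errors for the 10 members in mESCs and MEFs, libraries labelled KO against WT. Mycn is at -1.20 in mESCs and 3.33 in MEFs, and the mESC values are a description only.

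Markers of other cell types also differed between the MEF groups. Of the epithelial and mesothelial list, 4 of 7 genes tested were called, all higher, 5 were positive and 2 negative, and the median log2 fold change was 5.49. The list summed to 14.9, 38.0 and 26.3 CPM in WT and to 3724, 2513 and 2614 CPM in the labelled knockouts. Within each group the order was opposite to that of Mycn. The library highest for Mycn was lowest for the list, and the library lowest for Mycn was highest. Its most abundant gene by CPM in the labelled knockouts was Upk3b, at 8.88 ± 8.08 CPM (SD, n = 3) in WT and 1933 ± 320.3 in the labelled knockouts. The mesothelial genes Msln and Wt1 were higher by log2 fold changes of 7.67 ± 0.68 and 6.70 ± 0.60 (adjusted p = 0.00594 for each). The epithelial Epcam did not exceed 7 counts in any MEF library, and the 2 negative genes, Cdh1 and Krt19, were not called. Of the neural crest and neural list, 3 of 4 genes tested were called, all lower, and all 4 were negative, with a median log2 fold change of -5.95. The list summed to 115, 68.5 and 293 CPM in WT and to 7.39, 1.56 and 34.7 CPM in the labelled knockouts. Sox10, a neural crest factor, was between 4.96 and 26.9 CPM in WT and did not exceed 3 counts in the labelled knockouts. Tubb3 was the most abundant gene of the list by CPM in WT replicates 2 and 3 and Stmn2 in replicate 1. In WT MEFs the highest Mycl library, replicate 3, was also the highest for this list.

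The macrophage list summed to between 168 and 379 CPM in WT and to between 116 and 717 CPM in the labelled knockouts, with Csf1r the most abundant gene. For the endothelial list the sums were between 6.36 and 76.7 CPM and between 3.32 and 21.9 CPM. Neither list had a gene called by edgeR, with 0 macrophage and 2 endothelial genes at an unadjusted p under 0.05, and the erythroid list summed to at most 0.916 CPM. The sum of the fibroblast list, most of it Fn1 and collagens, overlapped between the groups. Of its 10 genes 0 were called by edgeR (1 at an unadjusted p under 0.05), 7 had a negative log2 fold change, and the median was -0.73. For 2 of them every labelled knockout lay below WT. Prrx1, a mesenchymal transcription factor, was between 465 and 571 CPM in WT and between 6.15 and 340 CPM in the labelled knockouts (log2 fold change -2.004 ± 1.26, adjusted p = 0.303). Vim, encoding vimentin, was at 4318 ± 1462 CPM (SD, n = 3) in WT and 1869 ± 830 in the labelled knockouts (-1.21 ± 0.45, adjusted p = 0.121). WT MEF replicate 3 differed from the other 5 MEF libraries in Xist (335.5 CPM, against at most 0.742) and Ddx3y (0.244 CPM, against at least 66.2). In such bulk samples, fewer cells of a type and less RNA per cell cannot be told apart. The part of cell composition and sex in the Mycn and Mycl values was not tested.

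**Figure D4:**
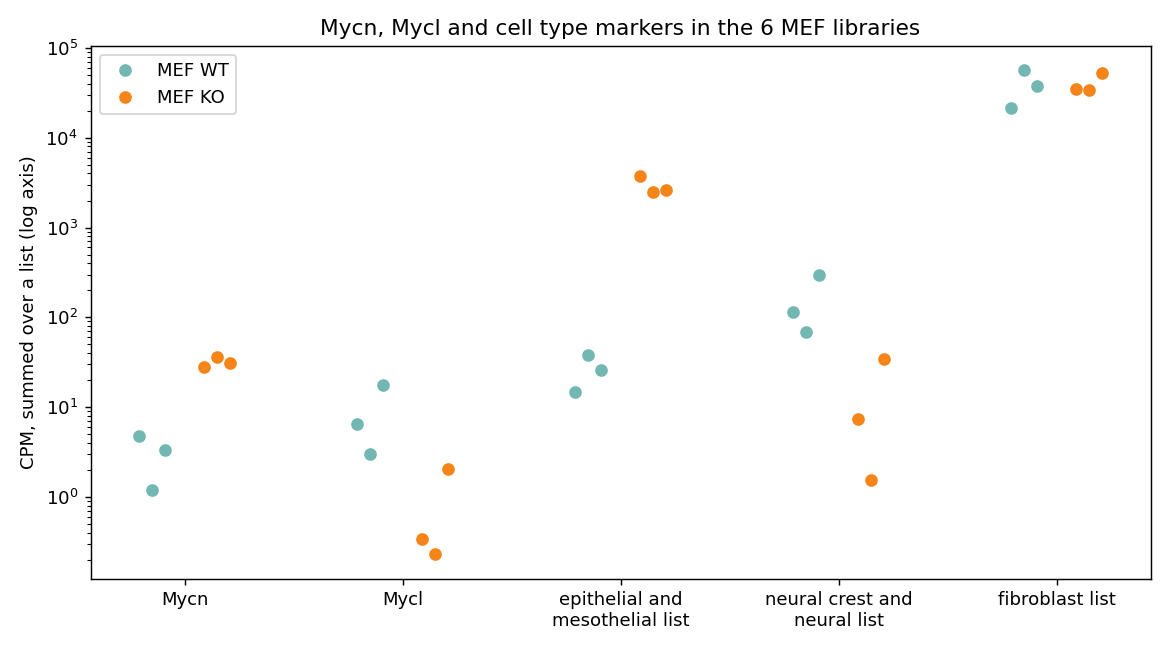
CPM of Mycn and Mycl and summed CPM of 3 marker lists in the 6 MEF libraries, on a log axis, 1 point per library. The epithelial and mesothelial list and Mycn are higher, and the neural crest and neural list and Mycl lower, in every library labelled KO, while the fibroblast list overlaps.

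The extended network was examined next. Mlxipl, a glucose-responsive partner of MLX, rose in Atxn7l3-/- mESCs from 14.9 and 9.52 CPM to 45.0, 31.2 and 35.6 CPM (log2 fold change 1.66 ± 0.31, adjusted p = 0.0311). Bmyc, which encodes a short relative of the MYC amino terminus, was lower in MEFs labelled Atxn7l3-/-, from 9.45 ± 5.57 CPM (SD, n = 3) to 0.953 ± 0.601 (log2 fold change -3.31 ± 0.79, adjusted p = 0.0490). The Bmyc call was lost with the replicate block, with GC offsets and without any 1 of the 6 libraries. Mga, which pairs with MAX, and Mlxip were not called in either cell type, and Mycs was not listed in either cell type.

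MYC target genes were read through 4 lists of 92 genes in all. In Atxn7l3-/- mESCs, 8 of the 92 were called, 6 lower and 2 higher, where 6.96% of all genes were called (3.88% lower, 3.08% higher). The median log2 fold change was -0.23, beside 0.04 for all genes. In MEFs labelled Atxn7l3-/-, 5 were called, all higher, where 9.41% of all genes were called (5.01% higher, 4.39% lower). The median was 0.27, beside -0.06 for all genes. Nothing about the targets is read from these counts of calls, nor from the counts at an unadjusted p below. With the replicate block 9 of the 92 were called in MEFs, 7 higher and 2 lower, where 14% of 15958 genes were called, 877 higher and 1355 lower.

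Of 34 ribosome biogenesis genes 25 were negative and 4 were called in mESCs, all lower. Imp4, a component of the small subunit processome, fell from 125 ± 13.8 CPM (SD, n = 2) to 44.2 ± 8.84 (SD, n = 3; log2 fold change -1.45 ± 0.21, adjusted p = 0.0215). The RNA helicase gene Ddx21 (-1.08 ± 0.20) and Polr1b, a subunit of RNA polymerase I (-1.05 ± 0.20), also fell. In MEFs 24 of 34 were positive and 3 were called, all higher, led by Dkc1, the pseudouridine synthase dyskerin (1.47 ± 0.26, adjusted p = 0.0259), with Gnl3 (0.98 ± 0.23) and Mphosph10 (0.83 ± 0.18). Gnl3 was called under 2 of 13 other settings only and not with the replicate block, and Mphosph10 under 4 of 13. The median of the list was -0.27 in mESCs and 0.33 in MEFs.

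Of 25 genes of nucleotide and polyamine synthesis, 1 was called in mESCs, Prps2, which was higher (1.32 ± 0.24), and 2 in MEFs, the CTP synthase gene Ctps (1.28 ± 0.26) and the folate enzyme gene Mthfd1 (1.03 ± 0.20). Among 17 genes of cell cycle entry, Ccnd1, encoding cyclin D1, fell in mESCs (-1.39 ± 0.27, adjusted p = 0.0317) and Tert, the telomerase catalytic subunit, rose (1.29 ± 0.20, adjusted p = 0.0234). None of these 17 was called in MEFs by edgeR (7 at an unadjusted p under 0.05, 5 called by DESeq2, and 1 higher and 1 lower with the replicate block), where Ccnd2 was the most abundant per kb, at 2174 ± 1146 CPM in WT and 1209 ± 512 in the labelled knockouts. In the list of glycolysis, iron uptake and translation, the glucose transporter gene Slc2a1 fell in mESCs (-1.24 ± 0.27, adjusted p = 0.0401) and no gene of 16 was called in MEFs by edgeR (3 at an unadjusted p under 0.05, 1 by DESeq2), with Pkm the most abundant per kb at 782 ± 218 CPM in WT and 679 ± 233 in the labelled knockouts.

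The number of calls moved with single libraries. Without either WT library or without KO replicate 1 no target gene was called in mESCs, when 0, 0 and 3 of all genes were called, and without KO replicate 2 there were 13, beside 12.8% of all genes. All mESC calls named here and below, Mlxipl included, were lost without any 1 of these 3 libraries. The calls of Mlxipl, Ddx21, Prps2, Ccnd1, Slc2a1, Smarcb1, Thbs1, Axin2 and Kdm5d were also lost in 1 fit of all libraries. Those of Slc2a1, Smarcb1 and Sap18 were lost with the replicate block. With GC offsets and the block, those of Ddx21 and Sap18 were lost. In MEFs the count of target genes was 0 without WT replicate 1 or 3 or KO replicate 1 or 2, where between 1.2% and 2.85% of all genes were called, and 1 without WT replicate 2, beside 5.23%.

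**Figure D5:**
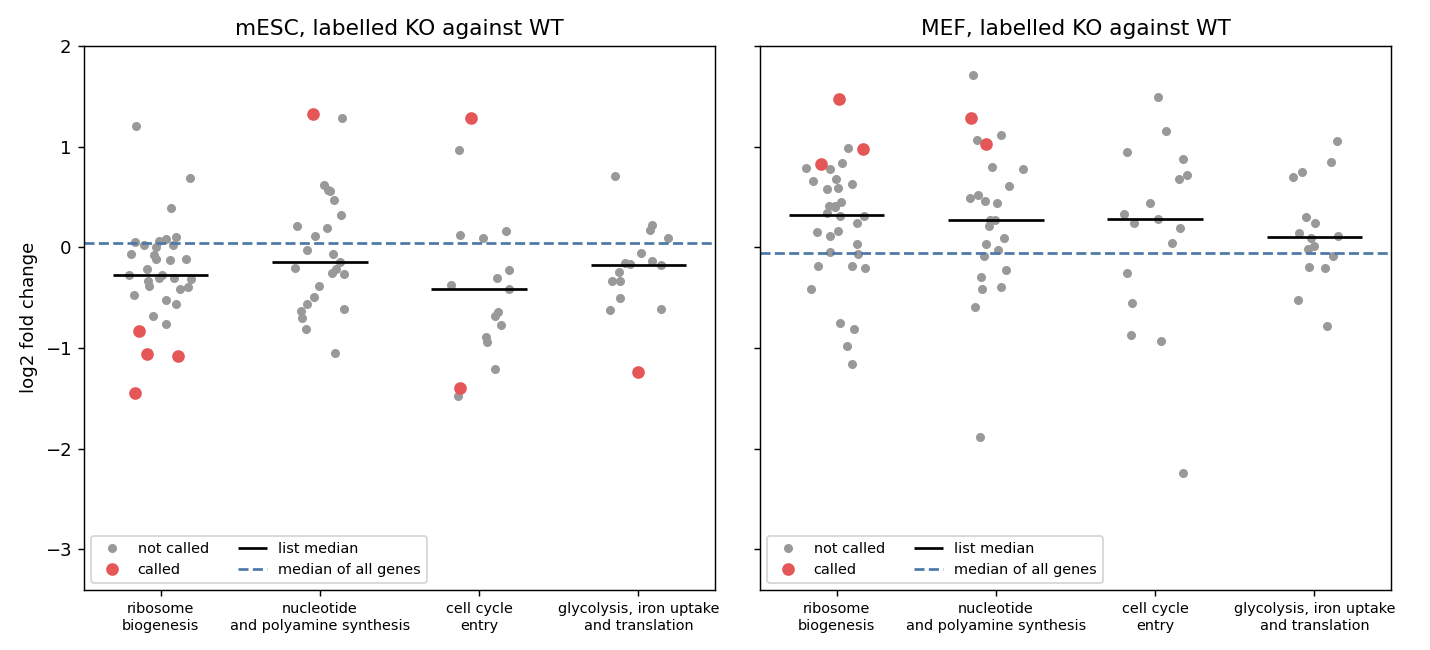
Log2 fold changes of the genes of the 4 MYC target lists in mESCs and MEFs, with list medians as lines and the median of all genes dashed. All 4 list medians lie below that of all genes in mESCs and above it in MEFs.

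Cofactors and regulators were examined in the same way, beside the shares of all genes given above. Of 14 MYC coactivators, 10 were negative and 2 were called lower in mESCs, Actl6a (-1.11 ± 0.20) and Smarcb1 (-1.14 ± 0.26), both encoding subunits of chromatin remodelling complexes. None was called in MEFs by edgeR (1 at an unadjusted p under 0.05, 1 by DESeq2), where Kat2b, an acetyltransferase of the SAGA type, was at 28.8 ± 11.9 CPM in WT and 67.0 ± 15.0 in the labelled knockouts (adjusted p = 0.0720). Kat2b was first by the mean level per kb of the 2 MEF groups, and in WT alone 5 genes of the list, led by Ep400, were above it. Of 11 corepressor genes 7 were negative and 1, Sap18, was called lower in mESCs (-1.56 ± 0.33) and none was called in MEFs by edgeR (3 at an unadjusted p under 0.05, 2 by DESeq2, and 1 lower with the replicate block). Rbbp7, first by the mean level per kb of the 2 MEF groups although Ncor1 was above it in WT, was at 263 ± 64.7 CPM in WT and 415 ± 136 in the labelled knockouts. Of 14 genes of MYC protein turnover tested, none was called in mESCs by edgeR (2 at an unadjusted p under 0.05, 1 by DESeq2), with Huwe1 the most abundant per kb at 776 ± 146 CPM in WT and 927 ± 390 in the knockouts. Skp2, an F-box protein of a ubiquitin ligase, rose in MEFs (1.15 ± 0.22, adjusted p = 0.0323), and this call was lost with GC offsets and without any WT library or KO replicate 1 or 2.

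Of 11 genes that MYC is known to repress, 1 was called in each cell type. Thbs1 rose in mESCs (1.38 ± 0.29) and Ndrg2 in MEFs (1.64 ± 0.26, adjusted p = 0.0194). The Ndrg2 call was lost without WT replicate 1 or 3. Of the MLX and MLXIP targets, none of 4 tested in mESCs and none of 2 in MEFs was called by edgeR (1 and 2 at an unadjusted p under 0.05). DESeq2, run without the filter on low counts, called 1 of the 4 as lower in mESCs, and in MEFs 1 as lower that was not among the 2 tested by edgeR. Txnip, the most abundant per kb, was at 190 ± 97.9 CPM in WT mESCs and 139 ± 35.2 in the knockouts, and at 132 ± 63.7 and 319 ± 126 in MEFs. In MEFs Txnip was called with the replicate block. Among 10 genes of the LIF and WNT signals upstream of Myc, Axin2, a feedback gene of WNT signalling, fell in mESCs from 63.3 and 49.3 CPM to between 11.9 and 13.6 CPM (log2 fold change -2.08 ± 0.22, adjusted p = 0.0211). None of the 10 was called in MEFs by edgeR (3 at an unadjusted p under 0.05, 1 by DESeq2, and 1 lower with the replicate block), where Ctnnb1 was the most abundant per kb at 999 ± 26.0 CPM in WT and 800.5 ± 67.8 in the labelled knockouts.

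The genes whose log2 CPM followed Myc most closely over the 11 libraries, among 19302 genes, were 1700123O20Rik (Pearson r = 0.991), Zdhhc5 (0.989), D7Bwg0826e (0.984), 9430002A10Rik (0.981) and Gm26982 (0.980). These values describe a pattern over libraries that share cell type and genotype, and carry no p. Zdhhc5 was at 114 ± 8.29 CPM in WT mESCs, 52.2 ± 14.2 in the knockouts, 186 ± 19.2 in WT MEFs and 197 ± 5.87 in the labelled knockouts. It was the most abundant of these genes, and others were low. 9430002A10Rik was at 0.275 ± 0.0690 CPM in WT mESCs and at most 0.0225 in the knockouts, below the limit of 3 counts. D7Bwg0826e was at 1.04 ± 0.0699 CPM in WT mESCs and 0.381 ± 0.0415 in the knockouts. Among the members, Mxd4 had the highest r with Myc (0.826) and Mycl the lowest (-0.535).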

How the data were processed

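Poly(A)+ RNA was measured in 11 libraries, grouped by the labels. Raw counts per gene were deposited by the authors, as was normalized signal (counts divided by size factors, also per kb), which was used only for checks. The submitters' processing notes name bcl2fastq 2.17.1.14, cutadapt 1.10, STAR 2.5.3a, HTSeq 0.6.1p1 and DESeq2 1.16.1, with mm10. Use of strand in counting is not given in the sources used here, and Mlx, Mxd3, Mxd4 and Mxi1 overlap genes on the other strand. The authors' fold changes and p-values, and an unnamed column of medians, were not used. A further WT mESC dataset, which the authors left out after a principal component analysis, is not analysed here.

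Counts were fitted per cell type with edgeR 4.0.16 in R 4.3.3 (filterByExpr, TMM, quasi-likelihood test, 2-sided, Benjamini-Hochberg over all genes tested), and WT cells were compared in 1 fit of 11 libraries over the 26398 genes listed in both tables. Called means an adjusted p of 0.05 or less. Counts at an unadjusted p under 0.05 are given without the share of all genes at that level. That share is above the shares called by edgeR, 6.96% in mESCs and 9.41% in MEFs, so nothing is read from these counts. Figures were drawn with matplotlib 3.10.9 in Python 3.11.15. The fits were tested on simulated data, by criteria that were changed after a first version of the test failed. In it many changed genes were missed at the libraries' own spread, so an absent call says little. Library totals ranged from 34515342 to 49602605, and their part in the calls was not tested. Members and lists were chosen with earlier results of these data known. Named are the members, Atxn7l3, the extended network, up to 3 called genes per list, direction and cell type, the gene highest per kb, by the mean of both groups, of lists with no call, genes within 500 kb of Myc and the 5 most like it.

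Same-numbered MEF libraries deviated together (r between 0.161 and 0.473 over 3 pairs), by the labels' numbers alone, although lines came from separate embryos. Alternatives were RLE, no filter, DESeq2 1.42.0, the replicate block, GC offsets (lowess span 0.3), 1 fit of all libraries and leaving out each library.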

Additional observations from a re-analysis of the deposited data

Results flagged for a closer look

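For 6 of 33 named genes outside the family, every knockout library lay on one side of WT in mESCs and every library labelled Atxn7l3-/- on the other side in MEFs. Many of the 33 were named because they were called in these same contrasts, so their count cannot be set against that of all genes. WT MEF replicate 3 had almost no Y-linked RNA. The pattern held for 1721 of 14297 genes tested in both cell types (968 of them, 6.77%, below WT in mESCs and above WT in MEFs) and for 23 of 174 genes of the lists, the members and Atxn7l3 included, 21 of them in that direction. Of 92 target genes 17 had it, all in that direction. The difference between the cell types was not tested. On the log2 scale the change was -0.61 in mESCs and 1.19 in MEFs for Kat2b, and in that order -0.55 and 1.15 for Skp2, -1.05 and 0.78 for Polr1b, -1.08 and 0.63 for Ddx21, and -0.39 and 0.83 for Mphosph10. For the Y-linked Kdm5d the values were -4.92 and 1.11. None of the 10 members had this pattern. Groups of 2 or 3 libraries are too small to single out a library as an outlier.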

How the results depend on the processing

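With 2 or 3 libraries a group, counts of calls moved with single libraries, and the cause was not tested. Members called in mESCs (2) were 1 in 1 fit of all 11 libraries (2.31% of all genes called). Without 1 KO library they were between 0 and 3, where between 0.0171% and 12.8% of all genes were called. Nothing is read from counts of members in mESCs, because this contrast chose the family. Target genes called in mESCs (8) were 16 without the filter (9.63% of all genes called), 16 with DESeq2 (11%), 3 in 1 fit of all libraries (2.31%), and between 0 and 13 without 1 library. Members called in MEFs (1) were 2 with DESeq2 (13.5% of all genes called) and with the replicate block (14%). They were also 2 with GC offsets (7.77%), with offsets and block (10.7%), and in 1 fit of all libraries (18.5%). Without 1 library they were between 0 and 2, where between 1.2% and 12.2% of all genes were called. Target genes called in MEFs (5) were 16 with DESeq2 (13.5% of all genes called), 9 with the replicate block (14%) and 17 in 1 fit of all libraries (18.5%), and between 0 and 5 without 1 library. Members called between WT cells (7) were between 4 and 7 without 1 library. Where a WT mESC library was left out, the lone one was taken to vary like the other groups.

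For Myc in MEFs the log2 fold change lay between -0.012, without WT replicate 1, and 0.75, without WT replicate 3 and with GC offsets and the replicate block. For Mnt in MEFs it lay between -0.38, without KO replicate 3, and 0.020, without KO replicate 1, and was 0.74 with GC offsets and 0.74 with GC offsets and the replicate block. In mESCs, 2 pairs of numbers share only a number (r of 0.00777 and -0.172). The replicate block there gave 2 members, 9 target genes and all 5 sex-linked genes called, where 8.13% of 17800 genes were called. In MEFs the block changed no call of a named gene other than those of Mycl, Bmyc, Gnl3 and Txnip. All genes called in MEFs went from 1501 to 2232 with the block, and the share of higher calls from 53.3% to 39.3%. With DESeq2 it was 40.8%, with 1 fit of all libraries 42.3%, and with GC offsets 58.2%. Without 1 library it lay between 48.5% and 69.8%. In mESCs 1 fit of all libraries lowered that share from 44.3% to 32.3%. There it was 50% with DESeq2 and 49.7% with the replicate block.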
